A study of Saccharomyces cerevisiae with 4 samples.

Results

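The genes described here are 43 nuclear genes of Saccharomyces cerevisiae that encode enzymes of the mitochondrial tricarboxylic acid (TCA) cycle and subunits of the respiratory chain and the ATP synthase, out of 6418 genes listed in the deposited tables. They were chosen by function, from a list of gene identifiers, and the rule used no measured value. They comprise 10 genes of the TCA cycle, 4 genes of succinate dehydrogenase (counted apart since the complex belongs to both the cycle and the chain), NDI1, 9 genes of complex III, 7 genes of complex IV and 12 genes of the ATP synthase. A ratio was computed for genes that averaged 10 counts or more per library, a minimum that all 43 passed, as did 6010 genes in all.

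The TCA cycle oxidizes acetyl groups to carbon dioxide and hands the electrons to NADH and to succinate dehydrogenase. Budding yeast has no proton-pumping complex I, and the single-subunit NADH dehydrogenase Ndi1 passes the electrons of matrix NADH to ubiquinone, from where they reach oxygen through complex III, cytochrome c and complex IV, while the ATP synthase uses the proton gradient. In yeast many of these genes are repressed by glucose and activated by the Hap2/3/4/5 complex, which binds CCAAT in promoters and whose activating subunit is Hap4.

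The mRNA of 4 strains was measured by RNA-seq, with 1 library per strain. Their common parent was the laboratory strain CEN.PK2-1C, which is MATa, has the markers ura3-52, his3D1, trp1-289 and leu2-3_112, and has SUC2 and MAL2-8c. All strains carried a yEGFP reporter gene and the activator MCP-VP64, a viral coat protein that binds RNA hairpins, joined to an activation domain. Strain byMM1827 expressed denAsCas12a, a DNase-dead Cas12a, together with 2 scaffold guide RNAs (ScRNAs) of the ScRNA-5′ design. Of these, 1 was directed at the lexOpR operators of the reporter and 1 at the HED1 promoter. Its control byMM1777 had the same proteins without the ScRNAs. Strain byMM1832 expressed dCas12e and 2 ScRNAs of the ScRNA-L1 design, 1 directed at lexOpR and 1 at the GAL7 promoter. Its control byMM1736 had dCas12e without the ScRNAs. The ScRNAs sat on a plasmid with the HIS3 marker, which the controls lacked, and the effects of the ScRNAs and of the marker cannot be told apart. The Cas proteins were driven by the promoter pGPD, MCP-VP64 by pADH1 and the ScRNAs by pSNR52. The 2 control strains differed in both Cas protein and reporter plasmid. No respiratory gene was an intended target of an ScRNA, so the comparison of each ScRNA strain with its control shows these genes away from the targets.

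The libraries held 54013763 counts in byMM1827, 37275559 in byMM1777, 47207057 in byMM1832 and 50666124 in byMM1736. HIS3, carried by the ScRNA plasmid, was 25.6-fold higher in byMM1827 than in byMM1777 and 10.9-fold higher in byMM1832 than in byMM1736. In each pair it was thus higher in the strain that the labels give as holding the ScRNA. The labels do not name HIS3. Levels are in TPM, which divides counts by gene length and brings every library to an equal sum. A difference is a ratio of the TPM of 2 libraries, with a 95% Clopper-Pearson interval from the 2 counts that covers counting error only. There were no replicates, so no ratio has a replicate error and no test was made. A gene was called past 1.5-fold at a ratio of at least 1.5 or at most its inverse. The median gene of each comparison did not lie at 1: its log2 ratio was -0.16 for byMM1827 over byMM1777, 0.03 for byMM1832 over byMM1736 and -0.22 for byMM1736 over byMM1777, and the genes are also given relative to it.

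With the exception of QCR8, the genes were abundantly expressed. Together they took 2.38% of all TPM in byMM1827, 2.58% in byMM1777, 2.27% in byMM1832 and 2.65% in byMM1736. Within complexes, mean levels over the 4 libraries ran from 156 TPM for KGD1 (YIL125W, the oxoglutarate dehydrogenase component of the 2-oxoglutarate dehydrogenase complex) to 515 TPM for FUM1 (YPL262W, fumarase) in the TCA cycle. In succinate dehydrogenase they ran from 321 TPM for SDH1 to 982 TPM for SDH4, in complex III from 280.2 TPM for RIP1 to 1049 TPM for QCR7 with QCR8 set apart, in complex IV from 301 TPM for COX6 to 924 TPM for COX8, and in the ATP synthase from 187 TPM for ATP20 to 1723 TPM for ATP15. ATP1 and ATP2 encode the alpha and beta subunits of the catalytic head, which the enzyme holds in equal number, but ATP2 (YJR121W) mRNA exceeded ATP1 (YBL099W) mRNA per length by 3.87-fold in byMM1827, 4.83-fold in byMM1777, 3.72-fold in byMM1832 and 3.88-fold in byMM1736. The order of these levels was thus kept in every library, whereas LSC2 over LSC1, the subunits of succinyl-CoA ligase, gave 1.23, 1.06, 0.936 and 1.21 in the same order of strains.

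**Figure D1:**
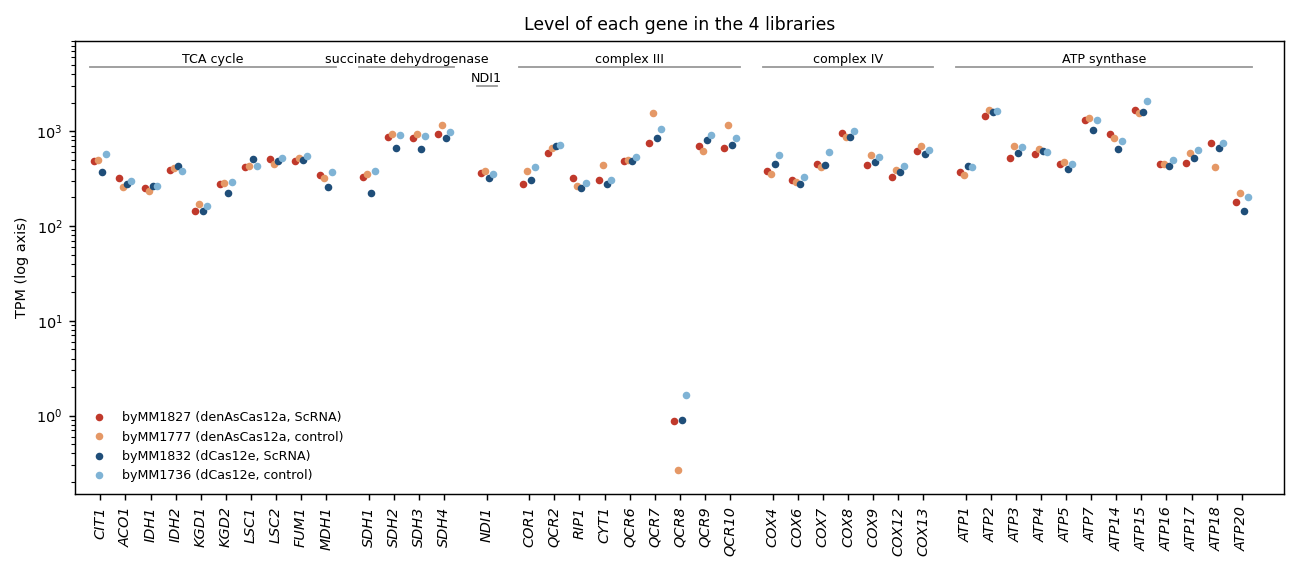
TPM of the 43 genes (log axis) in the 4 libraries, by complex, with 1 point per library and colours for byMM1827, byMM1777, byMM1832 and byMM1736. QCR8 lies between 0.266 and 1.67 TPM, far below all other genes, which lie between 143 and 2072 TPM.

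QCR8 (YJL166W, chrX:106434-106718, plus strand, 1 exon) encodes a small subunit of complex III that sits beside cytochrome b and is required for assembly of the complex. It was counted 14 times in byMM1827, 3 times in byMM1777, 13 times in byMM1832 and 26 times in byMM1736, which corresponds to 0.885, 0.266, 0.900 and 1.67 TPM. The other 8 genes of complex III had a median of 541, 558, 587 and 621 TPM in the same libraries, and the lowest of them had at least 4684 counts in any library. The mean level of QCR8 lay at percentile 0.83 of the genes that passed the minimum. Its coding sequence in the RefSeq reference (R64, strain S288C) is shown because its near absence stands out among the 43 genes, with the start and stop codon in capitals.
QCR8: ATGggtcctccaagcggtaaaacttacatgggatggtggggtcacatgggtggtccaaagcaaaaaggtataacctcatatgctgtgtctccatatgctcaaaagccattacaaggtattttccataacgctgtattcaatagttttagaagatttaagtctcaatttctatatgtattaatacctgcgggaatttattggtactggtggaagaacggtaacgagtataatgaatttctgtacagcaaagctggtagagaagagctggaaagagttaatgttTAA
All 31-base stretches of this sequence occurred once in the R64 genome and no other RefSeq gene overlapped it. Its neighbours were measured as usual: ERG20, 361 bases away, had 1018, 999, 1569 and 1038 TPM in byMM1827, byMM1777, byMM1832 and byMM1736, and HAL5, 175 bases away, had 24.0, 23.3, 28.2 and 19.5 TPM. The sequence of CEN.PK at this locus was not analysed here, and why the counts are low was not tested. The ratios of QCR8 rest on these few counts. It gave 3.33 (95% interval 0.930 to 18.1) for byMM1827 over byMM1777, 0.539 (0.255 to 1.09) for byMM1832 over byMM1736 and 6.28 (1.93 to 32.4) for byMM1736 over byMM1777, so that both intervals of an ScRNA strain over its control included 1. With a pseudocount of 1 TPM they were 1.49 and 0.712, short of 1.5-fold.

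In the denAsCas12a pair 29 of the 43 genes lay above the median gene and 14 below it. A few subunits of complex III and the ATP synthase stood apart. Of the 43 genes, 16 were higher and 27 lower in byMM1827 than in byMM1777, where 71.6% of all genes were lower. The median log2 ratio was -0.07, which is 0.09 above the median gene, and its sign turned to positive with TMM factors (0.085) or median-ratio size factors (0.090). QCR8 and ATP18 reached 1.5-fold higher, against a background of 2.38% of all genes, and QCR7 and QCR10 reached 1.5-fold lower, against 5.71%. Past 2-fold were QCR7 and, on its few counts, QCR8, where 1.40% of all genes were past 2-fold in either direction. By counting error alone, the intervals of 13 genes lay above 1, of 25 below 1, and of 5 across it. The matching shares over all genes were not computed, so these counts are not a result about the 43 genes in particular.

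QCR7 (YDR529C) encodes another small subunit next to cytochrome b. It had 751 TPM in byMM1827, 1559.8 TPM in byMM1777, 838 TPM in byMM1832 and 1048 TPM in byMM1736. The level in byMM1777 stood above the other 3, with a ratio of 0.481 (0.472 to 0.491) for byMM1827 over byMM1777, that is 2.08-fold lower, and of 0.799 (0.783 to 0.816) for byMM1832 over byMM1736. QCR10 (YHR001W-A), a small peripheral subunit, had 673 TPM in byMM1827, 1161 TPM in byMM1777, 710 TPM in byMM1832 and 842 TPM in byMM1736. It was again highest in byMM1777, as were 54.0% of all genes. Its ratio was 0.580 (0.563 to 0.597) for byMM1827 over byMM1777 and 0.843 for byMM1832 over byMM1736. Set against byMM1736 instead of its own control, byMM1827 gave 0.716 for QCR7 and 0.799 for QCR10, and neither passed 1.5-fold.

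The window from 250 bases before to 50 bases after the start codon of QCR10 (chrVIII:107576-107875, plus strand) is shown because this gene was among those that differed most in the denAsCas12a pair on firm counts. The sequence is from the RefSeq reference R64, and capitals mark CCAAT, which was searched on either strand (ATTGG being CCAAT on the other strand).
QCR10: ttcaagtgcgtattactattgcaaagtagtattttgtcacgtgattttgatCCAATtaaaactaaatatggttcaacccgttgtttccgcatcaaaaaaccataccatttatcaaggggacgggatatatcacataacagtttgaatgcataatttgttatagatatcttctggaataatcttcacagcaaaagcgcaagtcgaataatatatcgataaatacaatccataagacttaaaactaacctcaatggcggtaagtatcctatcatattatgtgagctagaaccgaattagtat
The match in QCR10 begins 199 bases before the start codon.

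Other subunits of complex III were split. CYT1 (YOR065W), cytochrome c1, had 308 TPM in byMM1827, 437 TPM in byMM1777, 281 TPM in byMM1832 and 303 TPM in byMM1736, with ratios of 0.705 and 0.926 in the denAsCas12a and dCas12e pairs. COR1 (YBL045C), a core protein, had 279.8 TPM in byMM1827, 385 TPM in byMM1777, 307 TPM in byMM1832 and 419 TPM in byMM1736, and its ratio was near 0.73 in both pairs (0.727 and 0.732). RIP1 (YEL024W), the Rieske iron-sulfur protein, had 323 TPM in byMM1827, 261 TPM in byMM1777, 251 TPM in byMM1832 and 286 TPM in byMM1736, and gave 1.24 in the denAsCas12a pair. The summed TPM of complex III in byMM1827 was 0.738 of that in byMM1777, the lowest ratio of a complex in this pair, and QCR7 and QCR10 made up most of the gap. QCR2 (YPR191W), QCR6 (YFR033C) and QCR9 (YGR183C) were within 1.5-fold in both pairs. Without QCR8 the median log2 ratio of complex III was -0.31 for byMM1827 over byMM1777 and -0.18 for byMM1832 over byMM1736, against -0.16 and -0.19 with it.

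ATP18 (YML081C-A), a small membrane subunit of the ATP synthase, had 752 TPM in byMM1827, 423 TPM in byMM1777, 671 TPM in byMM1832 and 745 TPM in byMM1736. Only byMM1777 was low. The ratio was 1.78 (1.70 to 1.86) for byMM1827 over byMM1777, 0.901 (0.870 to 0.933) for byMM1832 over byMM1736 and 1.76 for byMM1736 over byMM1777, and byMM1827 over byMM1736 gave 1.01. The gene has a coding sequence under 300 bases, as have 9 of the 43 genes, among them QCR8 and QCR10. Without these 9, only QCR7 remained past 1.5-fold in the denAsCas12a pair. Of the other ATP synthase genes in this pair, 4 were higher and 7 lower, none past 1.5-fold, and the summed TPM of the complex in byMM1827 was 0.985 of that in byMM1777.

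The TCA cycle, succinate dehydrogenase, NDI1 and complex IV had no gene past 1.5-fold in the denAsCas12a pair. ACO1 (YLR304C), aconitase, lay farthest from the median gene within the cycle, with 324 TPM in byMM1827, 260.4 TPM in byMM1777, 275 TPM in byMM1832 and 301 TPM in byMM1736 and a ratio of 1.24 in this pair. SDH4 (YDR178W), a membrane anchor subunit of succinate dehydrogenase, had 939, 1149.6, 851 and 987 TPM in the same order and a ratio of 0.817. COX8 (YLR395C), a small subunit of complex IV, had 969, 872, 862 and 994 TPM and a ratio of 1.11. The median log2 ratios were -0.03 for the TCA cycle, -0.12 for succinate dehydrogenase, -0.08 for NDI1 (YML120C, with 362, 382, 319 and 352 TPM) and 0.04 for complex IV, which is 0.14, 0.04, 0.08 and 0.20 above the median gene.

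In the dCas12e pair most of the genes were lower in the ScRNA strain, by small amounts, and succinate dehydrogenase had the lowest median of the complexes. Of the 43 genes, 38 were lower and 5 higher in byMM1832 than in byMM1736, where 46.0% of all genes were lower, and 39 of 43 lay below the median gene. The median log2 ratio was -0.20, that is 0.24 below the median gene, and it was negative under every scaling tried. The 5 genes that were higher were LSC1 (YOR142W, 1.19), IDH2 (YOR136W, 1.13), ATP1 (1.04), ATP4 (YPL078C, 1.03) and IDH1 (YNL037C, 1.01), which include both subunits of the NAD-dependent isocitrate dehydrogenase. Past 1.5-fold lower were QCR8, SDH1 and CIT1, against a background of 6.97%, and no gene was past 1.5-fold higher, against 4.48%. None was past 2-fold, where 3.49% of all genes were.

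**Figure D2:**
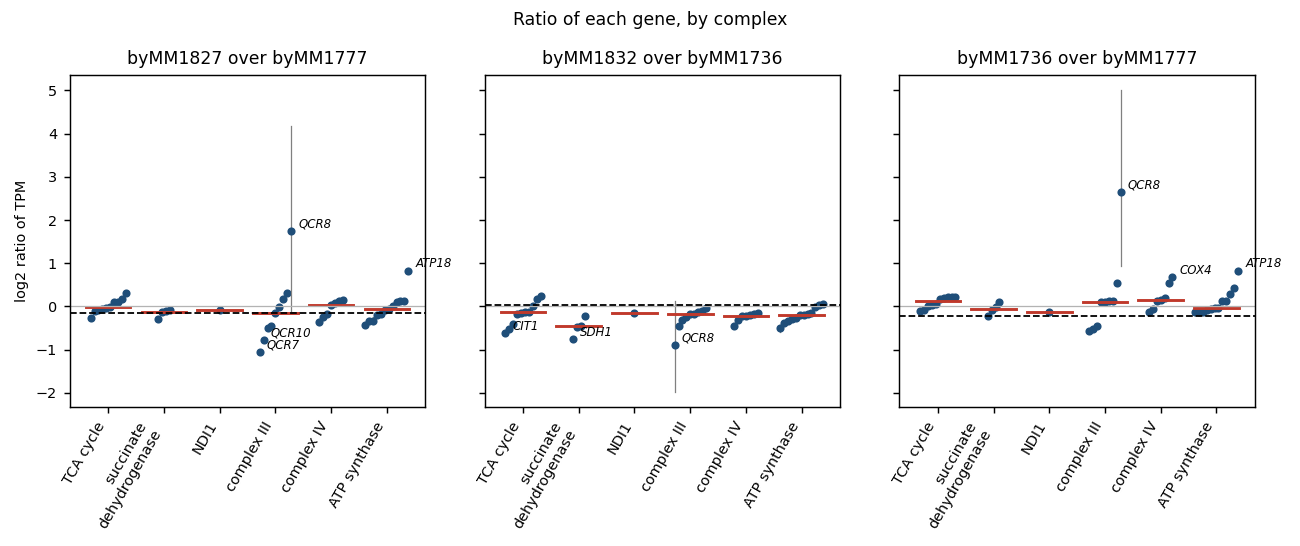
log2 ratio of TPM of each gene by complex, for byMM1827 over byMM1777, byMM1832 over byMM1736 and byMM1736 over byMM1777. Points are genes with 95% counting intervals, red lines the medians of a complex and the dashed line the median of all 6010 genes (-0.16, 0.03 and -0.22), and genes past 1.5-fold are named. In the middle panel 39 of 43 genes lie below the dashed line and in the right panel 39 of 43 lie above it.

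SDH1 (YKL148C), the flavoprotein subunit that oxidizes succinate, had 326 TPM in byMM1827, 353 TPM in byMM1777, 224 TPM in byMM1832 and 381 TPM in byMM1736. The level in byMM1832 was the lowest, and the ratio in the dCas12e pair was 0.589 (0.579 to 0.599), that is 1.70-fold lower, against 0.925 in the denAsCas12a pair. SDH2 (YLL041C), the iron-sulfur subunit, had 873, 925, 658 and 911 TPM in byMM1827, byMM1777, byMM1832 and byMM1736, and SDH3 (YKL141W), a membrane anchor subunit, had 856, 935, 643 and 881 TPM. Their ratios in the dCas12e pair were 0.723 and 0.731, and that of SDH4 was 0.862. All 4 genes were thus lowest in byMM1832, as were 37.0% of all genes. All 4 were also lower there than in the control of the other pair, byMM1777, with ratios between 0.636 and 0.740. In that comparison 3998 of 6010 genes were lower. The summed TPM of the complex in byMM1832 was 0.752 of that in byMM1736, the lowest ratio of a complex in this pair, whereas byMM1827 had 0.890 of the sum in byMM1777.

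The windows from 250 bases before to 50 bases after the start codons of the 4 genes are shown since they encode 1 complex and all were lower in byMM1832. SDH1 lies at chrXI:171080-171379, minus strand, SDH2 at chrXII:53882-54181, minus strand, SDH3 at chrXI:179417-179716, plus strand and SDH4 at chrIV:817700-817999, plus strand (window coordinates in R64, sequences from RefSeq). Capitals again mark CCAAT on either strand.
SDH1: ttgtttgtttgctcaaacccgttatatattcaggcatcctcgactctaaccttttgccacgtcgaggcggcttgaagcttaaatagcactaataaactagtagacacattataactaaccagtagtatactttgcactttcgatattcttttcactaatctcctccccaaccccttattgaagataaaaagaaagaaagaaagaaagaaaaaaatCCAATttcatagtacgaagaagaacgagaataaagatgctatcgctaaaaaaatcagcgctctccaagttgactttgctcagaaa
SDH2: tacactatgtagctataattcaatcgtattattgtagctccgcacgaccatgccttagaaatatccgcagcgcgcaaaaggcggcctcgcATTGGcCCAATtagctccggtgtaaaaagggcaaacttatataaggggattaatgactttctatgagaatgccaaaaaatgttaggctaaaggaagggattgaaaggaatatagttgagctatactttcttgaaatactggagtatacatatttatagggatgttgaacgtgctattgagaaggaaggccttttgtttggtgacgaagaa
SDH3: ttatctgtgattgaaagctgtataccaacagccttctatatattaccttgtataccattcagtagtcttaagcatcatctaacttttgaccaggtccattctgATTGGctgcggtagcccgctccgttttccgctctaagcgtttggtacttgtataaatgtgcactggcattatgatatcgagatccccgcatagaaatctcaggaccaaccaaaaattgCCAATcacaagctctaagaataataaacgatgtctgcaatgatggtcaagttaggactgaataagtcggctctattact
SDH4: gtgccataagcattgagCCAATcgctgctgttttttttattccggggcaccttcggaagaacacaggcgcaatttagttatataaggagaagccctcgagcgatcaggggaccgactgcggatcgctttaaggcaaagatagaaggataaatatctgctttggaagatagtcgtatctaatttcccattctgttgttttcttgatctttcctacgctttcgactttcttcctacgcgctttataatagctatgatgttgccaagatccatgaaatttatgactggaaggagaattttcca
Each window holds at least 1 match. The match of SDH1 begins 35 bases before the start codon, those of SDH2 160 and 154 bases before it, those of SDH3 147 and 29 bases before it and that of SDH4 233 bases before it.

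CIT1 (YNR001C), the mitochondrial citrate synthase and first enzyme of the cycle, had 491 TPM in byMM1827, 492 TPM in byMM1777, 369 TPM in byMM1832 and 569.7 TPM in byMM1736. The denAsCas12a strains were close (ratio 0.998), while the ratio in the dCas12e pair was 0.648 (0.638 to 0.658), with byMM1832 lowest and byMM1736 highest of the 4 libraries. MDH1 (YKL085W), the mitochondrial malate dehydrogenase, had 345, 320.5, 256 and 371 TPM in byMM1827, byMM1777, byMM1832 and byMM1736, and its ratio of 0.692 in the dCas12e pair lay just short of 1.5-fold lower. KGD2 (YDR148C), the succinyltransferase component of the 2-oxoglutarate dehydrogenase complex, gave 0.756. Within the cycle the ratios of this pair thus ran from 0.648 for CIT1 to 1.19 for LSC1, and KGD1, LSC2 (YGR244C), FUM1 and ACO1 lay between 0.891 and 0.921. KGD1 had 144, 172, 144 and 162 TPM and FUM1 had 487, 527, 495 and 551 TPM in the same order of strains.

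All 9 genes of complex III and all 7 genes of complex IV were lower in byMM1832 than in byMM1736, with medians of -0.19 and -0.22 on the log2 scale. COX7 (YMR256C), a small subunit of complex IV, was the lowest of its complex, with 455 TPM in byMM1827, 418 TPM in byMM1777, 443 TPM in byMM1832 and 605 TPM in byMM1736 and a ratio of 0.732. COX6 (YHR051W), the least expressed of the 7, had 303, 294, 280.2 and 326 TPM in the same order, and COX9 (YDL067C), COX12 (YLR038C) and COX13 (YGL191W) gave ratios between 0.858 and 0.905. Of the ATP synthase, 10 of 12 genes were lower, from ATP20 (YPR020W, a membrane subunit, with 179, 224, 143 and 204 TPM and a ratio of 0.702) to ATP2 (0.991). ATP15 (YPL271W), the epsilon subunit of the central stalk and the gene with the highest mean TPM of the 43, had 1686 TPM in byMM1827, 1542 TPM in byMM1777, 1594 TPM in byMM1832 and 2072 TPM in byMM1736, with a ratio of 0.769. ATP3 (YBR039W), ATP5 (YDR298C), ATP7 (YKL016C), ATP14 (YLR295C), ATP16 (YDL004W) and ATP17 (YDR377W) gave ratios between 0.792 and 0.882.

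**Figure D3:**
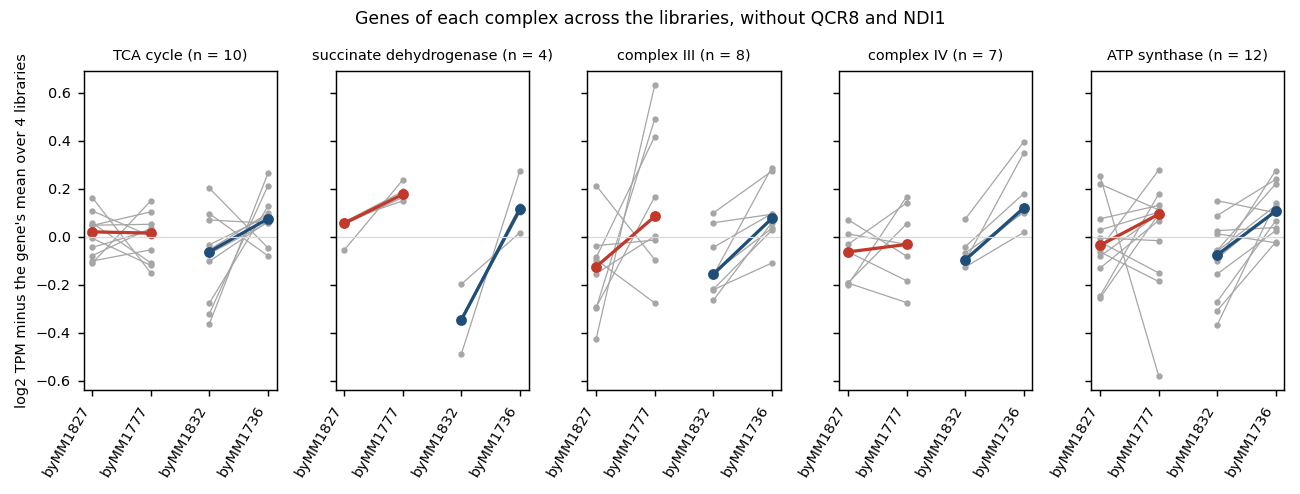
log2 TPM of each gene minus its own mean over the 4 libraries, by complex, with QCR8 and NDI1 left out. Grey points are genes, joined within each pair, and coloured points are medians, red for byMM1827 and byMM1777 and blue for byMM1832 and byMM1736. Succinate dehydrogenase is lowest in byMM1832, and complex IV is highest in byMM1736. The median TPM of the TCA cycle, complex III without QCR8 and the ATP synthase is also highest in byMM1736 (375, 621 and 655 TPM). These are medians of levels, which are not plotted here. Gene by gene, 7 of 12 ATP synthase genes are lower in byMM1736 than in byMM1777, with a median log2 ratio of -0.04, where 76.5% of all genes are lower.

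How far the dCas12e result depends on byMM1736 was read from the controls. In byMM1736 over byMM1777, 25 of the 43 genes were higher and 18 lower, where 76.5% of all genes were lower, and 39 of 43 lay above the median gene. The median log2 ratio was 0.09, that is 0.31 above the median gene, and relative to ACT1 its sign turned to negative (-0.11). QCR8, ATP18 and COX4 passed 1.5-fold higher, against a background of 2.51%, and none passed 1.5-fold lower, against 11.0%, with QCR7 at 0.672 and CYT1 at 0.694 closest to it. Past 2-fold was QCR8 alone, where 1.88% of all genes were. COX4 (YGL187C), a subunit of complex IV, had 377 TPM in byMM1827, 357 TPM in byMM1777, 453 TPM in byMM1832 and 567 TPM in byMM1736, and its ratio was 1.59 (1.54 to 1.64) between the controls (1.38 relative to ACT1, short of 1.5-fold), 1.06 for byMM1827 over byMM1777 and 0.800 for byMM1832 over byMM1736.

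Of the 43 genes, 19 had their highest level of the 4 libraries in byMM1736, against 7.59% of all genes, and 1 (IDH2) had its lowest level there, against 32.3% of all genes. Both comparisons that involve byMM1736 share this library. Set against byMM1777 instead, byMM1832 had a median log2 ratio of -0.10 over the 43 genes, which is 0.11 above the median gene of that comparison, and 20 of the 43 genes lay below the median gene. By complex, succinate dehydrogenase then lay 0.31 below the median gene, and the TCA cycle, complex III, complex IV and the ATP synthase lay 0.19, 0.15, 0.14 and 0.09 above it. The position below the median gene thus held against both controls for succinate dehydrogenase, and for the other 4 complexes only against byMM1736. The single gene NDI1 was also below it against both controls, at -0.18 relative to it against byMM1736 and -0.06 against byMM1777. Likewise byMM1827 against byMM1736 put 40 of the 43 genes below the median gene, with a median log2 ratio of -0.12, against 14 of 43 below it when set against its own control. CIT1 in byMM1832 over byMM1777 gave 0.750.

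Promoter sequences were searched for CCAAT on either strand. Among the RefSeq windows from 250 bases before to 50 bases after the start codon, 34 of the 43 genes (79.1%) held at least 1 CCAAT, against 2601 of 6001 windows of all protein-coding genes (43.3%). The share was 5 of 10 in the TCA cycle, 4 of 4 in succinate dehydrogenase, 7 of 9 in complex III, 6 of 7 in complex IV and 11 of 12 in the ATP synthase, and the window of NDI1 held it as well. The windows of CIT1, KGD1, KGD2, LSC1, LSC2, COR1, CYT1, COX4 and ATP1 held none of these letters. CACGTG, the motif of Cbf1, was in 4 of 43 windows (9.30%), against 2.92% of all windows. The core of the Abf1 motif, TCANNNNNNACG on either strand, was in 7 of 43 (16.3%), against 14.4%, and 5 of these 7 windows were of complex III. A motif may overlap another, and a match is a match of letters only.

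The regulators named above and other related genes were listed apart, as groups of textbook function. Of 13 regulators, HAP4 and MIG1 passed 1.5-fold, lower, in each of the 3 comparisons, where 5.71%, 6.97% and 11.0% of all genes did. HAP4, the activating subunit of the CCAAT-binding complex, had 59.6 TPM in byMM1827, 123 TPM in byMM1777, 36.7 TPM in byMM1832 and 74.2 TPM in byMM1736. The ratio was 0.486 (0.469 to 0.503) for byMM1827 over byMM1777, 0.494 (0.473 to 0.516) for byMM1832 over byMM1736 and 0.605 between the controls, so that the level was about the same factor lower in each ScRNA strain than in its own control. MIG1, a repressor active in glucose, gave 0.596, 0.614 and 0.619, and HAP3, a DNA-binding subunit, gave 0.683 and 0.668 in the pairs. HAP2 (1.03 and 1.07) and HAP5 (1.08 and 0.953), the remaining subunits, lay near 1. The 43 genes themselves had median ratios of 0.951 and 0.869 in the 2 pairs. Against the other control, HAP4 in byMM1827 gave 0.803 and in byMM1832 gave 0.299, and MIG1 gave 0.963 and 0.380, so that neither gene passed 1.5-fold in byMM1827 over byMM1736.

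**Figure D4:**
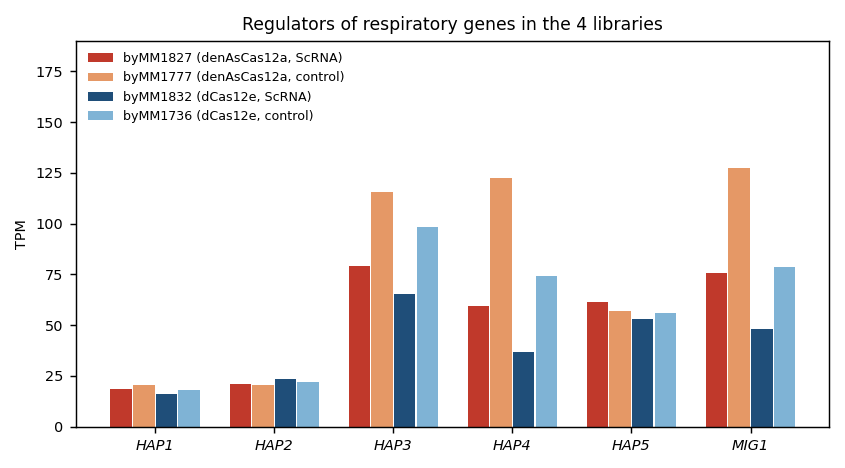
TPM of HAP1 to HAP5 and MIG1 in byMM1827, byMM1777, byMM1832 and byMM1736 (bars from 0, 1 library each). HAP4 and MIG1 are lower in each ScRNA strain than in its control and highest in byMM1777 (123 and 127 TPM), as are 54.0% of all genes. HAP2 and HAP5 stay between 20.5 and 23.6 TPM and between 53.2 and 61.4 TPM.

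Other genes of mitochondrial energy metabolism are given as medians relative to the median gene, with the denAsCas12a pair before the dCas12e pair. A further 7 nuclear genes of complex IV and the ATP synthase lay at -0.11 and -0.42 on the log2 scale. They include INH1 and STF1, which encode regulators of the ATP synthase and not subunits. All 7 were lower in both pairs, where 71.6% and 46.0% of all genes were. COX26 (0.527 in the dCas12e pair) was past 1.5-fold. The 10 isoenzymes and related enzymes outside the cycle, among them the pyruvate carboxylases PYC1 and PYC2, lay at 0.05 and -0.43. IDP2, the cytosolic NADP-dependent isocitrate dehydrogenase, gave 1.16 and 0.459. The 7 electron carriers and other dehydrogenases lay at 0.01 and -0.59 and were spread. In the dCas12e pair 3 of the 7 were past 1.5-fold lower, where 6.97% of all genes were. The lactate dehydrogenase genes gave 0.904 and 0.477 for CYB2 and 1.13 and 1.26 for DLD1. The external NADH dehydrogenases gave 1.09 and 1.01 for NDE1 and 0.844 and 0.533 for NDE2. GUT2 gave 0.903 and 0.680, CYC1 0.925 and 0.753, and CYC7, on at most 133 counts, 0.591 and 0.459. In contrast, the 5 genes of pyruvate dehydrogenase lay at 0.45 and 0.15, the 34 assembly factors at -0.004 and 0.03, and the 65 mitochondrial ribosomal proteins at 0.01 and 0.07. Single genes of these lists departed from the medians. PDX1 of pyruvate dehydrogenase gave 0.716 in the denAsCas12a pair. In that pair SDH7 (1.57) was past 1.5-fold higher, where 2.38% of all genes were, and 3 mitochondrial ribosomal proteins were past it lower, where 5.71% were. In the dCas12e pair the assembly factors CYC3 (0.648) and COX20 (0.654) were past 1.5-fold lower. The 7 subunits encoded in mitochondrial DNA were not analysed here.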

How the data were processed

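RNA-seq was made from 4 strains with 1 library each, from overnight cultures that were diluted, grown on and frozen, with Trizol RNA. The authors deposited counts, whole numbers of reads per gene without normalization, and the same genes in TPM, where the authors divided counts by gene length and scaled each library. The submitters' processing notes name FastQC, Trimmomatic, HISAT2, bedtools, StringTie and DESeq2. Their roles, versions, genome build, annotation and strand setting are not given in the sources used here. The ratio of count to TPM followed the RefSeq coding length within 5% for all 43 genes. Unequal lengths or mapping in the authors' steps would move levels between genes more than ratios of 1 gene.

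Samples were grouped by the strain in their labels. The columns of 2 further strains were not used. Neither were 2 deposited tables of the authors' own comparisons, which hold mean TPM, log2 fold change, p, q and a call. Symbols and coordinates come from RefSeq R64 (6017 of 6418 identifiers matched). R64 is strain S288C, not CEN.PK.

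Ratios are of deposited TPM without a pseudocount, for genes that averaged 10 counts or more. A library at 0 counts would have been set to the TPM of 3 counts, and 95% Clopper-Pearson intervals came from scipy 1.17.1. PCR reads are not independent molecules, so the intervals cover counting error only. Alternatives used pseudocounts of 1 and 0.1 TPM, counts per total, TMM factors (edgeR 4.0.16), size factors (DESeq2 1.42.0), ACT1, the control of the other pair, other filters and thresholds, and sets without short or overlapping genes. The medians without QCR8 and the position against the median gene of the other control were added after seeing the data. The ratio script was tested on simulated data. Values in every library were given for genes past 1.5-fold, for the highest and lowest mean of a complex and for the gene of each complex farthest from the median gene in each pair, and further genes were named after their values were seen. The 43 genes and the lists were chosen with earlier results of these data known.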

Additional observations from a re-analysis of the deposited data

Results flagged for a closer look

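ATP18, past 1.5-fold in the denAsCas12a pair, had opposite directions in the pairs: its TPM ratio was 1.78 for byMM1827 over byMM1777 and 0.901 for byMM1832 over byMM1736. The difference between the pairs was not tested, since each strain has 1 library. Against byMM1736 instead of byMM1777, byMM1827 gave 1.01.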

How the results depend on the processing

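No paired analysis was possible because each strain has 1 library and the labels give no shared replicate numbers, and no replicate could be left out. A model of ScRNA blocked by Cas protein, which takes the ScRNAs of both pairs as 1 treatment, was not fitted. For byMM1827 over byMM1777, the median log2 ratio of the 43 genes (-0.07) became 0.085 with TMM factors, 0.090 with size factors, -0.29 relative to ACT1 and -0.12 against byMM1736, and the count past 1.5-fold (4) became 7 relative to ACT1, 2 against byMM1736, 1 without genes under 300 coding bases and 2 past 2-fold. For byMM1832 over byMM1736, the median (-0.20) became -0.24 with TMM factors, -0.30 relative to ACT1 and -0.10 against byMM1777, and the count (3) became 5 relative to ACT1, 7 against byMM1777 and 0 past 2-fold. For byMM1736 over byMM1777, the median (0.09) became 0.13 with counts per total, 0.31 with TMM factors, 0.31 with size factors, -0.11 relative to ACT1 and 0.016 without genes under 300 coding bases, and the count (3) became 6 with TMM factors, 6 with size factors, 5 relative to ACT1, 1 without genes under 300 coding bases and 1 past 2-fold. Apart from the 2-fold threshold, the share of all genes past the threshold was not computed under these alternatives. The changed counts therefore have no background beside them and are not results about the 43 genes in particular. The QCR8 ratio turned to 0.531 for byMM1827 against byMM1736 and to 3.39 for byMM1832 against byMM1777, on at most 26 counts. A pseudocount of 1 TPM put it at 1.49 for byMM1827 over byMM1777, 0.712 for byMM1832 over byMM1736 and 2.11 between the controls, which ends both calls of an ScRNA strain over its control. COX4 between the controls fell short of 1.5-fold relative to ACT1 (1.38). Of the other 40 alternatives of these medians and counts, 9 could not change a value, since all 43 genes passed the filter and none overlapped another gene, and 31 gave values close to those reported. A scaling moves all genes of a library by 1 factor, so positions relative to the median gene do not change with it. Among the 43 genes, depth limits QCR8 most, and the lack of replicates limits every ratio.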
